A study of Homo sapiens with 12 samples.

Results

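The genes described here are 10 genes by which cells are commonly sorted into mesenchymal and epithelial identity. They were chosen by symbol from the 58051 genes of the count table, with earlier results of these data already known. They are VIM, FN1 and CDH2, which build the mesenchymal cytoskeleton, matrix and junction, CDH1 and KRT18, which build the epithelial junction and cytoskeleton, and the transcription factor genes ZEB1, ZEB2, SNAI1, SNAI2 and TWIST1. All 10 were in the table, and 9 of them passed the filter on low counts over the 12 libraries, with TWIST1 the exception. The cells were MDA-MB-231, a human triple-negative breast cancer line with a mesenchymal form. Every culture was transfected with a pool of siRNAs at 50 to 100 nM. The 4 groups of 3 libraries received a non-targeting pool (siControl), a pool against NELFA (siNELFA), a pool against YAP1 (siYAP) or both targeting pools (siNELFA+siYAP). The study's methods put RNA isolation for these libraries at 72 h after transfection, in 3 biological replicates, while the labels name both 48 h and 72 h. A pool can act on other transcripts than its target, and no library with a second pool against the same gene was analysed here.

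Epithelial cells hold to each other through E-cadherin, the product of CDH1, and carry keratin filaments. In the epithelial-mesenchymal transition the ZEB, SNAI and TWIST factors bind E-box sequences at epithelial promoters such as that of CDH1 and repress them, while vimentin, fibronectin and N-cadherin become abundant. NELFA is a subunit of the negative elongation factor, which holds RNA polymerase II in a pause just downstream of the start site, and YAP is the transcriptional co-activator of the Hippo pathway that works through the TEAD factors. The comparisons below ask how far the identity genes moved when one or both of these regulators were depleted.

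On GRCh38, with GENCODE release 44 for the gene bounds, VIM (ENSG00000026025) lies on chromosome 10 from 17228241 to 17237593 and ZEB1 (ENSG00000148516) on the same chromosome from 31318495 to 31529814, both on the plus strand. FN1 (ENSG00000115414) lies on chromosome 2 from 215360440 to 215436073 and ZEB2 (ENSG00000169554) from 144364364 to 144521057, both on the minus strand. CDH1 (ENSG00000039068) lies on chromosome 16 from 68737292 to 68835537, KRT18 (ENSG00000111057) on chromosome 12 from 52948871 to 52952906 and SNAI1 (ENSG00000124216) on chromosome 20 from 49982980 to 49988886, all on the plus strand. TWIST1 (ENSG00000122691) lies on chromosome 7 from 19020991 to 19117636 on the minus strand.

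The promoters of FN1, VIM and ZEB1 are shown because these are the well-counted genes whose levels differed between groups in at least one fit below. RefSeq promoter windows of 300 bases, from 250 before to 50 after the start on GRCh38, were held for 5 of the 10 genes (VIM, FN1, ZEB1, ZEB2 and CDH2), and the others were CDH1, SNAI1, SNAI2, KRT18 and TWIST1. Where a gene had several windows, the one nearest to the start of the Ensembl canonical transcript was taken. The windows were searched on both strands for the E-box CACCTG that the ZEB and SNAI factors bind, the TEAD motif GGAATG, the AP-1 motif TGANTCA and the cyclic AMP response element TGACGTCA. None of the 4 patterns overlaps another in these windows, and the capitals mark every match. The FN1 window is chr2:215436019-215436318 on the minus strand, the VIM window chr10:17227991-17228290 on the plus strand and the ZEB1 window chr10:31318966-31319265 on the plus strand.
FN1 promoter: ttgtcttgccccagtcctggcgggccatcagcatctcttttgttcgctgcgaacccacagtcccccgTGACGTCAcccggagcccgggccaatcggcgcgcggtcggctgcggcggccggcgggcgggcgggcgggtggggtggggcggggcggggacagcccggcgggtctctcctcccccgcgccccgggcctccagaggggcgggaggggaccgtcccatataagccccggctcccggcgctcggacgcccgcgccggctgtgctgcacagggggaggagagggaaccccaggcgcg
VIM promoter: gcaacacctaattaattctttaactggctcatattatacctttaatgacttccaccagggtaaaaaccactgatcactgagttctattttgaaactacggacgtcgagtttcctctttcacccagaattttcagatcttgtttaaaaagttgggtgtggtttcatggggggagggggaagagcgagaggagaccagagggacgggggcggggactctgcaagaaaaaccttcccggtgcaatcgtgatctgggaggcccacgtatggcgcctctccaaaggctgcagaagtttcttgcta
ZEB1 promoter: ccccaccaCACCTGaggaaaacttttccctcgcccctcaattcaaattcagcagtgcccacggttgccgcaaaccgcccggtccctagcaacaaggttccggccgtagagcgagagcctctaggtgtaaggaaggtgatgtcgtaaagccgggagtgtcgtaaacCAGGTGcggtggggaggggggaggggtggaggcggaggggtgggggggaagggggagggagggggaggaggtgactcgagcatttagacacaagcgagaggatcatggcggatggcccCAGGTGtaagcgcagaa
The FN1 window held 1 cyclic AMP response element, which begins 183 bases before the start and is found in 1.85% of 35116 promoter windows of the same length. The ZEB1 window held 3 E-boxes, which begin 242 and 85 bases before the start and at base 34 of the transcript, and 20.6% of all windows held at least 1. Of the 7 windows of ZEB1, 2 held an E-box. The VIM window held none of the 4 patterns. The TEAD motif, present in 14.0% of all windows, and the AP-1 motif, present in 7.71%, were not among the letters of the 3 windows. A match of letters is a description and does not show that a factor was bound.

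The libraries held 9608145 to 18803104 counted reads. NELFA, the gene targeted in siNELFA, stood at 26.9 ± 1.36 CPM (reads of the gene relative to the library total, scaled with TMM factors; SD, n = 3) in siControl, and siNELFA (8.69 ± 1.45) and siNELFA+siYAP (7.08 ± 0.975) were below every siControl library. YAP1, the target of siYAP, had 272 ± 27.8 CPM under the non-targeting pool against 43.0 ± 4.72 (siYAP) and 41.6 ± 2.15 (siNELFA+siYAP). The line's label was checked by receptor genes. ESR1 had 0 to 6 reads and PGR 0 to 4 reads a library, while ERBB2 lay between 45.6 and 80.4 CPM.

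Before any comparison, 3 libraries have to be set apart. Replicate 1 of siControl, of siNELFA and of siYAP lay beyond all of the other 9 libraries, siNELFA+siYAP replicate 1 included, at 5721 of 18525 filtered genes, which is 30.9%. Of these 2873 genes were higher and 2848 lower in the 3 libraries. Among the identity genes CDH1 and FN1 were above and VIM and SNAI2 below all other libraries, and the other 5 filtered genes overlapped. The common biological coefficient of variation of the single-siRNA groups was 0.304 to 0.323 with replicate 1 and 0.113 to 0.139 without it, against 0.0578 among the 3 siNELFA+siYAP libraries. Libraries of the same number in siControl, siNELFA and siYAP deviated together from their group means, so values from a fit that compares libraries within a number (replicate block) are added where a call depends on it. That pattern was not shared by siNELFA+siYAP, and the number therefore pairs only the 3 single-siRNA groups. The names of the siNELFA+siYAP libraries share N1 and differ in a suffix. Whether these 3 libraries are separate replicates or parts of 1 was not tested. If they are parts, their SDs, SEs and adjusted p-values understate the spread between replicates. The cause of the split between numbers was not tested. Statements below that groups were apart, or that a gene moved the same way in every number, describe single genes. The share of all genes that did the same was not computed.

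VIM encodes vimentin, the intermediate filament of mesenchymal cells, and it was the most abundant of the 10 genes per length, with a median of 1058 TPM (the deposited level, which is scaled by transcript length and by library) over the 12 libraries. The 3 siControl libraries held 1185, 1368 and 1604 CPM, the siNELFA libraries 1288, 1666 and 1867, the siYAP libraries 1180, 1429 and 1506, and the siNELFA+siYAP libraries 1679, 1742 and 1745. All siNELFA+siYAP libraries were above all siControl and all siYAP libraries, and in the other groups replicate 1 was the lowest. Within each number siNELFA was above siControl, by 0.12, 0.29 and 0.22 on the log2 CPM scale. The siYAP library was above its siControl partner in 1 of 3 numbers.

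FN1 encodes fibronectin, the matrix glycoprotein, and it spanned 70.9 to 369 TPM. The siControl libraries held 1616, 497 and 633 CPM, the siNELFA libraries 1109, 398 and 443, the siYAP libraries 1920, 598 and 732, and the siNELFA+siYAP libraries 524, 562 and 563. Replicate 1 exceeded the mean of replicates 2 and 3 by 2.86-fold in siControl, 2.64-fold in siNELFA and 2.89-fold in siYAP. Within each number the order was the same, with siNELFA lowest, siControl between and siYAP highest. The siNELFA library was below its siControl partner by 0.54, 0.32 and 0.51 on the log2 CPM scale, and the siYAP library was above it by 0.25, 0.27 and 0.21.

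CDH2 (ENSG00000170558, chromosome 18) encodes N-cadherin, the cadherin usually gained by mesenchymal cells, and had at most 22 reads a library. The siControl libraries held 22, 14 and 16 reads, the siNELFA libraries 0, 8 and 8, the siYAP libraries 6, 12 and 12 and the siNELFA+siYAP libraries 4, 8 and 18. All siNELFA libraries were below all siControl libraries, and the siYAP libraries lay below or within them when scaled to depth. At these counts the counting error alone is large, and for the siNELFA replicate 1 count of 0 the exact binomial 95% interval reaches up to 0.289 CPM.

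**Figure D1:**
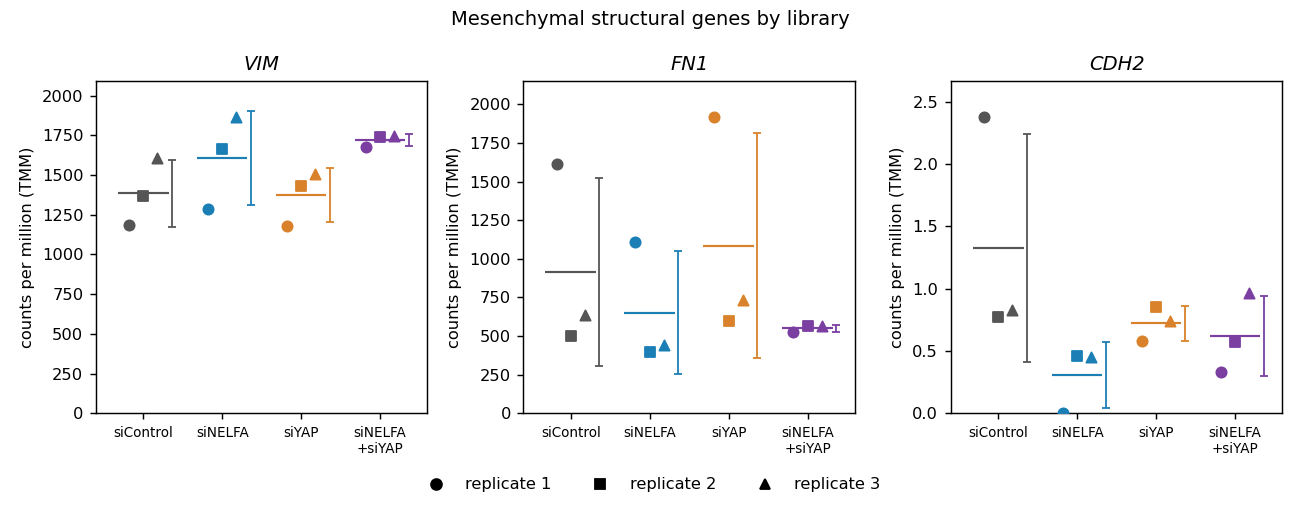
CPM with TMM factors (vertical axes, linear from 0) of VIM, FN1 and CDH2 in each library of the 4 siRNA groups. Symbols give the replicate number, horizontal lines the group mean and bars the SD (n = 3). FN1 in replicate 1 of the 3 single-siRNA groups lies between 1109 and 1920, far above the 398 to 732 of their other libraries.

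CDH1 encodes E-cadherin, and the replicate numbers differed in it by far more than the siRNA groups did. Replicate 1 held 230 reads in siControl, 599 in siNELFA and 169 in siYAP, and the other 9 libraries held 0 to 17. Scaled to depth, siControl stood at 24.9, 0.934 and 0.207 CPM, siNELFA at 46.9, 0.806 and 0, siYAP at 16.2, 0 and 0, and siNELFA+siYAP at 0.826, 0.286 and 0.215. Exact binomial 95% intervals, which cover counting error only, ran from 21.8 to 28.3 CPM for siControl replicate 1, from 43.2 to 50.8 for siNELFA replicate 1 and from 13.9 to 18.9 for siYAP replicate 1, and thus did not overlap one another. Replicate 1 was 43.6-fold above the mean of replicates 2 and 3 in siControl and 116-fold above it in siNELFA. The siNELFA mean took the 0 reads of replicate 3 as 0, without a floor. In siYAP replicate 1 was at least 81.5-fold higher, taking 3 reads in each of the libraries with 0 reads as the floor, so the folds are not on the same basis. For the counts of 0 the same intervals reach up to 0.209 CPM in siNELFA replicate 3 and up to 0.263 and 0.227 CPM in siYAP replicates 2 and 3.

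KRT18 encodes a keratin of simple epithelia and, unlike CDH1, was abundant in every library, at 126 to 177 TPM. The siControl libraries held 159, 178 and 181 CPM, the siNELFA libraries 194, 173 and 183, the siYAP libraries 139, 153 and 172 and the siNELFA+siYAP libraries 165, 164 and 172. The siControl group overlapped each of the other groups, and siYAP was below siControl in 3 of 3 numbers, by 0.19, 0.21 and 0.07 on the log2 CPM scale. The 67 KRT18 pseudogenes in the table held reads equal to 6.10% to 10.7% of the KRT18 count, so reads from near-identical copies may be divided among them.

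**Figure D2:**
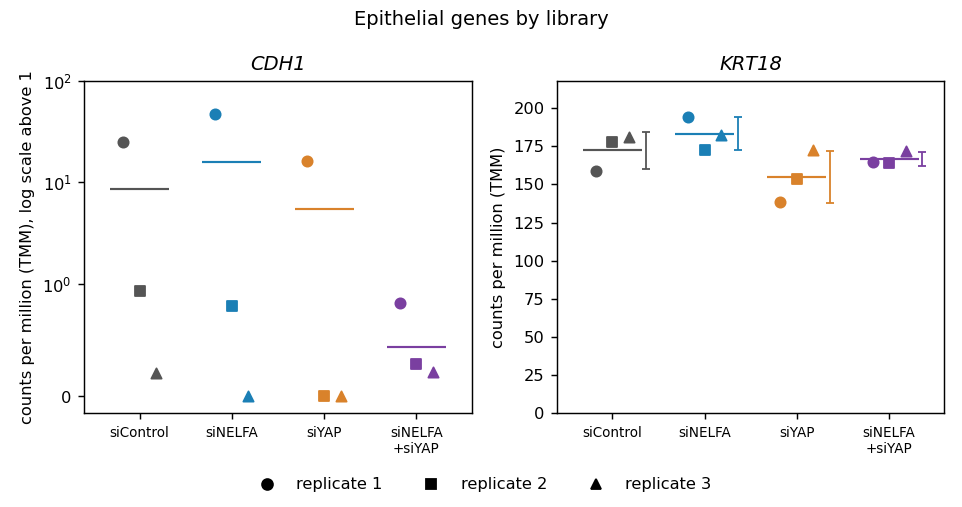
CPM with TMM factors of CDH1 (vertical axis linear below 1 and logarithmic above) and KRT18 (linear from 0) in each library. Symbols give the replicate number, horizontal lines the group mean and, for KRT18, bars the SD (n = 3). CDH1 is at 16.2 to 46.9 in replicate 1 of siControl, siNELFA and siYAP and below 1 in the other 9 libraries, while KRT18 stays between 139 and 194.

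ZEB1, a zinc finger repressor of CDH1, was the most abundant of the factor genes, at 35.6 to 64.0 TPM. The siControl libraries held 152, 131 and 127 CPM, the siNELFA libraries 113, 116 and 105, the siYAP libraries 111, 128 and 117 and the siNELFA+siYAP libraries 117, 102 and 115. All siNELFA and all siNELFA+siYAP libraries were below all siControl libraries. In siYAP the library was below its siControl partner in 3 of 3 numbers, but the groups overlapped. The antisense gene ZEB1-AS1 held 5.06% to 9.35% as many reads as ZEB1, and VIM-AS1 0.651% to 1.29% as many as VIM. The kit marks strand, but the strand setting of the counting is not given in the sources used here, so reads of these pairs may be mixed.

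ZEB2, the second ZEB repressor, had 37.2, 25.6 and 28.2 CPM in the siControl libraries. The siNELFA libraries held 30.3, 29.7 and 29.5 CPM, the siYAP libraries 32.4, 30.5 and 31.6 and the siNELFA+siYAP libraries 29.3, 33.3 and 31.9. The siControl libraries alone spanned all other libraries, so no group was apart from it.

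SNAI1 encodes Snail, a short-lived repressor of CDH1, and was low, with 22 to 117 reads a library. The siControl libraries held 3.24, 1.43 and 2.48 CPM, the siNELFA libraries 7.36, 3.40 and 4.09, the siYAP libraries 4.42, 1.57 and 3.08 and the siNELFA+siYAP libraries 3.47, 6.43 and 6.28. All siNELFA and all siNELFA+siYAP libraries were above all siControl libraries, and siYAP overlapped siControl. Within numbers siNELFA was above siControl by 1.15, 1.18 and 0.69 on the log2 CPM scale, and siYAP by 0.43, 0.12 and 0.30.

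SNAI2 (ENSG00000019549, chromosome 8) encodes Slug, the related repressor, and had 47.1, 62.9 and 68.2 CPM in the siControl libraries. The siNELFA libraries held 33.4, 60.3 and 55.1 CPM, the siYAP libraries 34.5, 58.8 and 63.5 and the siNELFA+siYAP libraries 58.5, 56.1 and 55.2. Replicate 1 was 0.719-fold, 0.579-fold and 0.564-fold the mean of replicates 2 and 3 in siControl, siNELFA and siYAP. TWIST1, the basic helix-loop-helix factor, had 1 read in siNELFA replicate 1 and 0 in the other 11 libraries. For 0 reads the exact binomial 95% intervals end at 0.191 to 0.399 CPM.

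**Figure D3:**
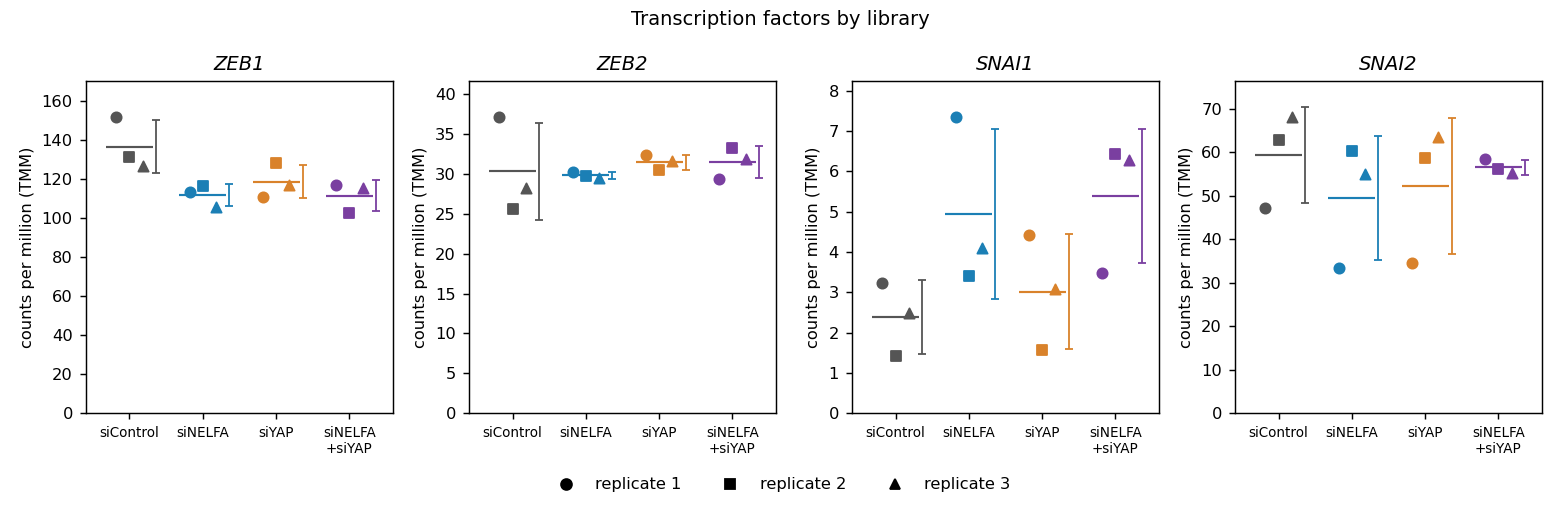
CPM with TMM factors (vertical axes, linear from 0) of ZEB1, ZEB2, SNAI1 and SNAI2 in each library of the 4 siRNA groups. Symbols give the replicate number, lines the group mean and bars the SD (n = 3). The siNELFA and siNELFA+siYAP libraries of ZEB1 lie below, and those of SNAI1 above, all siControl libraries.

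Compared per length in the deposited TPM, the median over 12 libraries put VIM first at 1058, then KRT18 at 146, FN1 at 112, ZEB1 at 40.2, SNAI2 at 32.6, ZEB2 at 10.3, SNAI1 at 2.65, CDH1 at 0.506, CDH2 at 0.187 and TWIST1 at 0. The ranges over libraries of KRT18 and FN1 overlapped, as did those of ZEB1 and SNAI2. The range of CDH1 overlapped those of ZEB2, SNAI1, CDH2 and TWIST1, and CDH2 overlapped TWIST1 but not SNAI1, while VIM stood above all and ZEB2 below the range of SNAI2 and above that of SNAI1.

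For siNELFA against siControl, FN1, CDH2, ZEB1 and SNAI2 were lower and SNAI1 and VIM higher in siNELFA within every number. How many of all genes moved one way in every number was not counted, and which members stood out depended on the fit. Without the block, edgeR's quasi-likelihood test called 0 of the 9 tested identity genes at an adjusted p of 0.05, where it called 0.00564% of all 17727 tested genes. At an unadjusted p under 0.05, which 4.46% of all genes had, there was 1 identity gene, SNAI1, at a log2 fold change of 1.06 ± 0.45 (SE). FN1 stood at -0.50 ± 0.55 and turned to 0.21 without siControl replicate 1. Here DESeq2 and limma on TPM also called 0 members. However, DESeq2 gave no p-value for CDH1 in any comparison where it was run, so CDH1 could not be called by it. It gave no adjusted p for CDH2 where siNELFA+siYAP was set against another group. Limma on TPM tested 8 members. With the replicate block edgeR called 5.21% of all genes, and among the identity genes FN1 alone, which fell by 0.46 on the log2 scale (SE 0.088, edgeR adjusted p = 0.0115, lower in 3 of 3 pairs). SNAI1, at 1.04 ± 0.28, had an edgeR adjusted p of 0.0533 with the block. VIM stood at 0.21 ± 0.084 (edgeR adjusted p = 0.177 with the block), ZEB1 at -0.28 ± 0.10 (0.136), SNAI2 at -0.28 ± 0.13 (0.238) and CDH2 at -1.81 ± 0.81 (0.232).

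The blocked values were also computed without the pair of libraries numbered 1, which leaves 4 libraries and 1 residual degree of freedom, and there edgeR called 15.7% of all genes. FN1 then stood at -0.41 ± 0.069 (edgeR adjusted p = 2.03e-07), VIM at 0.26 ± 0.061 (0.000411) and SNAI1 at 0.97 ± 0.34 (0.0329), all 3 called, and ZEB1 at -0.21 ± 0.085 (0.0788). Without the pair numbered 3, where 3.65% of all genes were called, FN1 at -0.43 ± 0.15 was no longer called (edgeR adjusted p = 0.0833). Without the pair numbered 2, where 3.56% were, it was called at -0.53 ± 0.15 (0.0236). CDH1 turned from 0.51 ± 0.35 with all pairs to -0.78 ± 0.90 without the pair numbered 1, neither of them called. That pair held 230 and 599 of its reads, and the other libraries 0 to 17.

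For siYAP against siControl, FN1 and SNAI1 were higher and CDH1, ZEB1, SNAI2 and KRT18 lower in siYAP within every number. None of these differences passed the test with all libraries, and the share of all genes that moved one way was not computed. Without the block edgeR called 0 of 9 members and 0.00578% of all 17296 genes. At an unadjusted p under 0.05 there were 0 members, beside 1.3% of all genes. DESeq2 and limma on TPM also called 0 members. With the block edgeR called 0 members and 0.0173% of all genes, with FN1 at 0.24 ± 0.085 (edgeR adjusted p = 0.535), CDH1 at -1.19 ± 0.52 (0.544), CDH2 at -0.64 ± 0.58 (0.708) and SNAI1 at 0.30 ± 0.32 (0.751). Without the pair numbered 1, where edgeR with the block called 1.62% of all genes, FN1 rose by 0.24 on the log2 scale (SE 0.055, edgeR adjusted p = 0.0330), and without the pair numbered 2 or 3, where 0.173% and 0.105% of genes were called, it was not called. VIM was at -0.02 ± 0.084 with the block and KRT18 at -0.16 ± 0.11 (adjusted p = 0.620).

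Both single knockdowns were set against each other directly, in a comparison added after the data were seen that uses no siControl library. FN1 was the clearest difference, and it was lower in siNELFA than in siYAP by 0.79, 0.59 and 0.72 on the log2 CPM scale within numbers 1, 2 and 3. Without the block edgeR called 0 of 8 tested members and 0.0116% of 17257 genes. At an unadjusted p under 0.05 it found 0 members and 5.63% of all genes. With the block it called 15.8% of all genes and 3 of 8 members. FN1 stood at -0.70 ± 0.078 (edgeR adjusted p = 1.05e-06) and was called without any one of the 3 pairs, at -0.65 to -0.75, where edgeR called 14.8%, 14.9% and 5.91% of all genes without the pair numbered 1, 2 and 3. VIM stood at 0.23 ± 0.076 (0.0454) and was called without the pair numbered 1 but not without the pair numbered 2 or 3. CDH1 stood at 1.69 ± 0.32 (0.000699), a difference that comes from replicate 1 (599 against 169 reads) and from 14 reads against 0 in replicate 2, and without the pair numbered 1 it was too low to be tested. KRT18, at 0.25 ± 0.087, had an edgeR adjusted p of 0.0520, and SNAI1, at 0.73 ± 0.28, one of 0.0842.

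**Figure D4:**
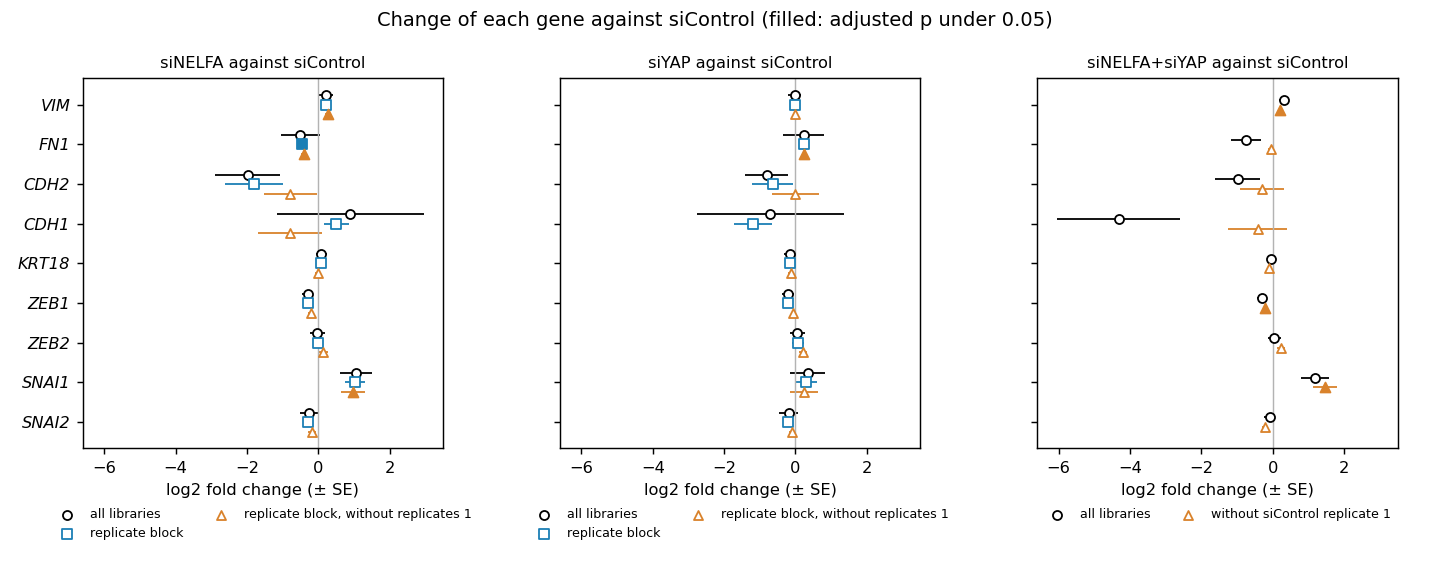
Log2 fold change against siControl (horizontal axis) with its SE for the 9 identity genes that could be tested, by edgeR with all libraries (circles). In the siNELFA and siYAP panels squares add the replicate block, and triangles are the blocked fit without the pair numbered 1. In the siNELFA+siYAP panel triangles are the fit without the block and without siControl replicate 1. Filled symbols have an adjusted p under 0.05. The wide bars of CDH1 narrow only when replicate 1 is left out or blocked, FN1 is lower in siNELFA and higher in siYAP, and SNAI1 is higher in siNELFA and siNELFA+siYAP.

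For siNELFA+siYAP against siControl, SNAI1 and VIM were above and ZEB1 below siControl in every library, and how many of all genes were apart in this way was not counted. With all 6 libraries edgeR called 0 of 9 members, where it called 0.428% of 17533 genes. An unadjusted p under 0.05 was found for 18.5% of all genes, 4 members among them. These were SNAI1 at 1.19 ± 0.39 (edgeR adjusted p = 0.186), VIM at 0.30 ± 0.12 (0.252), ZEB1 at -0.30 ± 0.13 (0.260) and CDH1 at -4.32 ± 1.72 (0.246). DESeq2 and limma on TPM called 0 members. Without siControl replicate 1 edgeR called 24.4% of 18587 genes and 3 members. VIM rose by 0.21 (SE 0.058, edgeR adjusted p = 0.0152) and SNAI1 by 1.47 (SE 0.33, 0.00436) on the log2 scale, and ZEB1 fell by 0.21 (SE 0.071, 0.0421). FN1 moved from -0.75 ± 0.42 to -0.04 ± 0.077 and CDH1 from -4.32 ± 1.72 to -0.42 ± 0.84 when that library was left out. The CDH1 and FN1 differences of the fit with all libraries thus rest on 1 siControl library. Whether the 3 siNELFA+siYAP libraries are separate replicates was not tested, so the calls of VIM, SNAI1 and ZEB1 may rest on 1 culture.

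The double knockdown was also set against each single knockdown. Against siNELFA, edgeR called 0 of 8 tested members and 0.00573% of 17463 genes. An unadjusted p under 0.05 was found for 6.62% of all genes and among the members for CDH1 alone. DESeq2 and limma on TPM called 0 members. Without siNELFA replicate 1, where 1.25% of 18286 genes were called, FN1 turned from -0.25 ± 0.37 to 0.38 ± 0.065 and was called (edgeR adjusted p = 0.0168). VIM was then at -0.04 ± 0.056 and SNAI1 at 0.54 ± 0.29, neither called. Against siYAP, edgeR called 0 of 8 tested members and 0.035% of 17167 genes. VIM at 0.32 ± 0.12 (edgeR adjusted p = 0.265) and FN1 at -0.99 ± 0.41 (0.311) had an unadjusted p under 0.05, as did 15.5% of all genes. DESeq2 and limma on TPM called 0 members. Without siYAP replicate 1, where 16.5% of 17773 genes were called, VIM rose by 0.23 (SE 0.052, edgeR adjusted p = 0.0101), SNAI1 rose by 1.21 (SE 0.36, 0.0370) and FN1 fell by 0.27 (SE 0.078, 0.0315) on the log2 scale. In replicates 2 and 3 the mean FN1 level was 420 CPM in siNELFA, 565 in siControl and 665 in siYAP, and the 3 siNELFA+siYAP libraries averaged 550 ± 22.2. These comparisons share libraries, so they are not independent of one another.

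Whether the effect of one siRNA pool depended on the other was tested as an interaction over the 12 libraries. edgeR called 0 of 9 members and 0 of 18525 genes (0% of genes, with 326 at an unadjusted p under 0.05), and DESeq2 (559 at an unadjusted p under 0.05) and limma on TPM (498) also called 0 genes. The member nearest to it by unadjusted p was CDH2, at 1.79 ± 1.10, followed by CDH1 at -4.53 ± 3.29. FN1 was at -0.48 ± 0.76, SNAI1 at -0.22 ± 0.64 and VIM at 0.11 ± 0.23.

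Other genes of the 2 programmes were read from lists chosen beside the 10 genes. Of 29 other mesenchymal genes 21 passed the filter over the 12 libraries, and of 37 other epithelial genes 28 did. The genes without expression included ESRP1, the epithelial splicing regulator, KRT5 and TWIST2, each with 0 reads in all libraries. Among the filtered epithelial genes 12 were above and 1 was below all other libraries in replicate 1 of the 3 single-siRNA groups, and among the mesenchymal genes 8 were above and 4 below, beside 15.5% of all genes above and 15.4% below. The epithelial genes above were EPCAM, CDH3, KRT19, TJP3, JUP, GRHL1, ELF3, ST14, SPINT1, SPINT2, CDS1 and MUC1. SPINT1, a membrane-bound protease inhibitor of epithelia, stood at 68.2, 112 and 114 CPM in replicate 1 of siControl, siNELFA and siYAP, against means of 9.97, 9.31 and 10.6 in their replicates 2 and 3. CDH11, a mesenchymal cadherin, was also higher there, at 165, 139 and 126 CPM against 33.2, 37.2 and 33.6. Both programmes thus had members on the high side in the libraries that held CDH1.

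**Figure D5:**
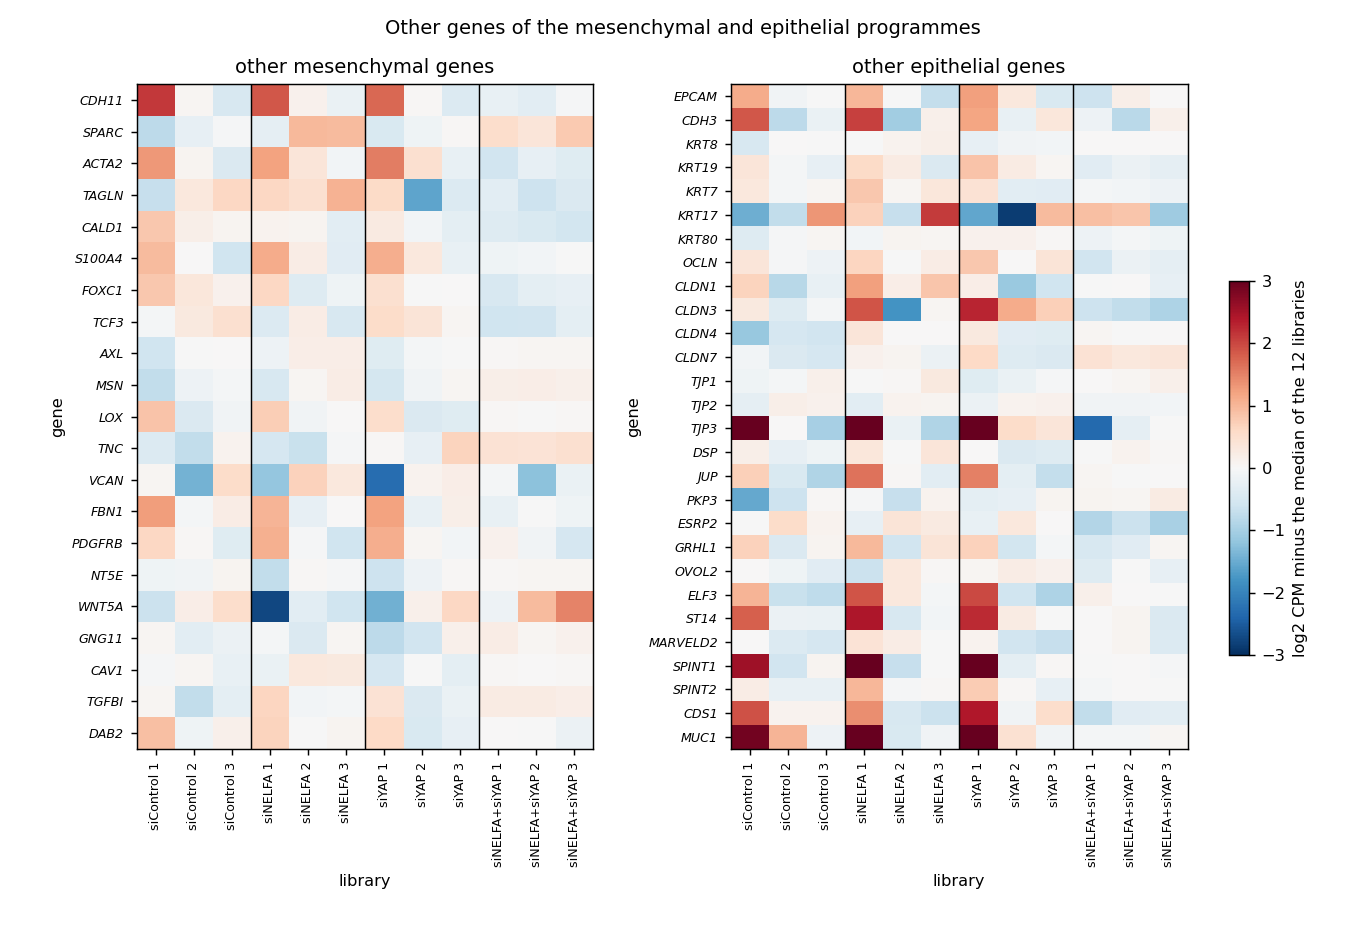
Log2 CPM minus the median of the 12 libraries (colour, from -3 in blue to 3 in red, values beyond drawn at the ends) for the 21 other mesenchymal and 28 other epithelial genes that passed the filter (rows), by library (columns, 3 a group). Replicate 1 of siControl, siNELFA and siYAP forms 3 red columns at 12 epithelial and 8 mesenchymal genes, and the siNELFA+siYAP columns stay near 0 at most genes.

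With the replicate block, a few genes of both lists passed the test in siNELFA against siControl, where 5.21% of all genes did (490 higher and 434 lower of 17727). Of 21 tested mesenchymal genes 2 rose and 0 fell (median log2 fold change 0.05 against 0.01 over all genes), and of 26 tested epithelial genes 4 rose and 0 fell (median 0.23). SPARC, a matrix glycoprotein, rose by 0.99 on the log2 scale (SE 0.24, edgeR adjusted p = 0.0353) and TGFBI, a matrix adhesion protein induced by TGF-beta, by 0.48 (SE 0.0995, 0.0158). The epithelial genes that rose were the tight junction claudins CLDN1, by 0.88 (SE 0.15, edgeR adjusted p = 0.00526), and CLDN4, by 0.86 (SE 0.16, 0.0101), the epithelial transcription factor ELF3, by 0.88 (SE 0.20, 0.0260), and plakoglobin JUP, by 0.67 (SE 0.13, 0.0129). Each was higher in siNELFA in 3 of 3 pairs. Of 7 tested genes of the adherens junction, the cadherin partner catenins and nectins, NECTIN2 rose by 0.75 (SE 0.11, edgeR adjusted p = 0.00251), 0 fell, and the median was -0.04. Without the block 0 genes of these lists were called in siNELFA, with 1 mesenchymal, 1 epithelial and 1 junction gene at an unadjusted p under 0.05, beside 4.46% of all genes.

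In siYAP against siControl edgeR called 0 genes of these lists with or without the block. With the block 5 of 20 mesenchymal, 5 of 26 epithelial and 0 of 7 junction genes had an unadjusted p under 0.05, beside 9.11% of all genes. In siNELFA+siYAP against siControl 0 genes of the 3 lists were called, and 7 of 21 mesenchymal, 5 of 26 epithelial and 2 of 7 junction genes had an unadjusted p under 0.05, beside 18.5% of all genes. In siNELFA against siYAP with the block, 6 of 19 mesenchymal genes rose and 2 fell, and 8 of 28 epithelial genes rose and 1 fell, beside 15.8% of all genes called. Of 5 tested splicing regulators of the transition, 0 were called against siControl in any group. Without the block 0, 0 and 1 had an unadjusted p under 0.05 in siNELFA, siYAP and siNELFA+siYAP, beside 4.46%, 1.3% and 18.5% of all genes.

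Markers of other cell types were read beside these results. Of 13 leukocyte, endothelial, fibroblast and adipocyte genes 7 passed the filter, and COL1A2, PECAM1 and PLIN1 were above all other libraries in the replicate 1 libraries that held CDH1. Some markers were at or near 0, with 0 reads of CD3E in all libraries, at most 4 of PTPRC, at most 2 of CDH5 and at most 2 of ADIPOQ. Others were not, with COL1A1 at 6.27 to 27.2 CPM, COL1A2 at 0.715 to 52.9 and PECAM1 at 1.76 to 8.87. LUM lay at 0.550 to 2.86 CPM, PLIN1 at 0 to 2.98 and VWF at 0 to 1.08. The summed level of the list was 118 to 155 CPM in siControl, 164 to 230 in siNELFA, 148 to 212 in siYAP and 214 to 228 in siNELFA+siYAP. Most of it was CD68, a lysosomal gene that tumour cells also express, which rose by 0.63 in siNELFA with the block (SE 0.10, edgeR adjusted p = 0.00473) and by 0.94 in siNELFA+siYAP without it (SE 0.11, 0.0317). In siYAP CD68 held 129 CPM in replicate 1 and a mean of 140 in replicates 2 and 3. The siControl values were 88.9 and 103, and edgeR called 0 genes of this list in siYAP against siControl. In a bulk library a change in the share of cells and a change in RNA per cell cannot be told apart.

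The genes whose levels ran most like those of the identity genes over the 12 libraries were sought among 12970 genes averaging at least 50 reads, by the root mean square difference of log2 CPM centred on siControl. For CDH1 they were TMPRSS2, CHI3L2 and PSG5, at 1.31, 1.37 and 1.44, beside a root mean square of 3.05 for CDH1 itself. TMPRSS2, an epithelial serine protease, held 57.3, 102 and 85.3 CPM in replicate 1 of siControl, siNELFA and siYAP and 1.42 to 4.84 in the other 9 libraries. For FN1 they were TNIK, ADAMTS9-AS2 and ACSL1, at 0.083, 0.20 and 0.21, beside 0.72 for FN1 itself. TNIK, a kinase, held 73.7, 51.5 and 79.8 CPM in replicate 1 of siControl, siNELFA and siYAP, and its other libraries fell between 17.3 and 29.97. For SNAI1 they were BMP1, JUNB and RP11-66N24.3, at 0.28, 0.30 and 0.32, beside 0.92. JUNB, an AP-1 subunit, held 14.5 to 28.7 CPM in siControl, 25.97 to 63.0 in siNELFA, 21.4 to 52.7 in siYAP and 41.7 to 42.8 in siNELFA+siYAP.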

How the data were processed

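After rRNA depletion, RNA from MDA-MB-231 cultures was sequenced as 12 libraries, 4 groups of 3, and samples were grouped by their titles. The study's methods call the 3 libraries of a group independent biological replicates. The authors aligned reads to GRCh38 (Ensembl release 87) with STAR (2 passes). Their deposited counts, made with featureCounts, give whole reads for every gene and were not normalized. The deposited TPM values, estimated by the authors per library, served for levels per length and as an alternative (the lines of an identifier summed). A deposited FPKM table was not used. The submitters' processing notes also name Cufflinks, and tool versions and counting options are not given in the sources used here.

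From the counts, groups were compared with edgeR 4.0.16 (R 4.3.3): quasi-likelihood test, TMM factors, genes kept by filterByExpr (minimum count 10, total 15, proportion 0.7), only the libraries compared, no block, and Benjamini-Hochberg adjustment over all tested genes. SE is the log2 fold change over the square root of F. On simulated counts of siNELFA against siControl with 200 changed genes, 0% at a log2 fold of 1 and 84.5% at 2 were recovered. In siNELFA+siYAP against siControl 13% and 95% were.

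Replicate numbers, from the titles, were checked as pairs over 12971 genes: deviations from group means correlated at 0.642 to 0.886 among the single-siRNA groups and at -0.052 to 0.026 with siNELFA+siYAP. The library names of siNELFA+siYAP end in N1_1 to N1_3, and those of each single-siRNA group in N1 to N3. The number was taken to pair the libraries of the single-siRNA groups only.

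Alternatives were the replicate block, RLE factors, DESeq2 1.42.0, no filter beyond 1 read, all 12 libraries in one fit, limma 3.58.1 on log2 TPM (pseudocount 1 or 0.1, mean TPM of at least 1) and each library left out. Added after seeing the data were fits of libraries numbered 2 and 3, blocked fits without 1 pair, and siNELFA against siYAP. The members and the gene lists were chosen with earlier results of these data known, and 1 gene of the mesenchymal list is not reported here. Named are all members, other list genes called against siControl with or without the block and moved one way in all pairs (up to 6 a list), and the 3 genes most like each of the 3 members with the widest range of group means. Genes named for the replicate 1 pattern, for 0 reads or as checks of cell type were chosen after their values were seen. Figures were drawn with matplotlib 3.10.9.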

Additional observations from a re-analysis of the deposited data

How the results depend on the processing

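Of 876 values recomputed for 60 results under 23 alternative settings, 776 kept their direction and their side of the threshold. A further 22 kept their direction and passed it newly, and 78 changed sign, 50 of these when 1 library was left out. Among the 78, FN1 in siNELFA+siYAP against siNELFA without siNELFA replicate 1 also passed the threshold. Values without an adjusted p, such as CDH1 in DESeq2, were counted as not passing. RLE factors changed none of the directions. The replicate block raised the members called from 0 to 1 in siNELFA against siControl and from 0 to 3 in siNELFA against siYAP, and called 0 in siYAP against siControl. It also called 0 in the siNELFA+siYAP comparisons and the interaction. There the number does not pair the siNELFA+siYAP libraries with the others, so those blocked fits cannot serve as a check. Without the pair numbered 1, 2 or 3 the blocked fit called 3, 1 and 0 members in siNELFA against siControl, 1, 0 and 0 in siYAP against siControl and 2, 3 and 2 in siNELFA against siYAP. Leaving out 1 library gave 0 to 3 members called in siNELFA+siYAP against siControl, 0 to 1 against siNELFA and 0 to 3 against siYAP, the highest without replicate 1 of the single group each time, and 0 elsewhere. With limma on TPM at a pseudocount 1 the sign turned for VIM -0.030, KRT18 -0.15 in siNELFA against siControl, and ZEB2 -0.034 in siNELFA+siYAP against siControl, and FN1 0.022 in siNELFA+siYAP against siNELFA, and SNAI1 0.085 in the interaction. With limma on TPM at a pseudocount 0.1 the sign turned for VIM -0.030, CDH1 -0.030, KRT18 -0.15 in siNELFA against siControl, and ZEB2 -0.034 in siNELFA+siYAP against siControl, and FN1 0.023 in siNELFA+siYAP against siNELFA, and SNAI1 0.11 in the interaction. At these pseudocounts the median over all genes was -0.19 and -0.22 in siNELFA against siControl, against 8.0e-05 in edgeR. It was -0.13 and -0.15 in siNELFA+siYAP against siControl, 0.069 and 0.078 against siNELFA, and 0.13 and 0.15 in the interaction. Relative to these medians each of the turned values lay on the side that edgeR gave. With only the libraries numbered 2 and 3 of the single-siRNA groups the sign turned for CDH1 -0.48, KRT18 -0.0052, ZEB2 0.15 in siNELFA against siControl, and VIM -0.034, CDH1 6.30, FN1 0.14, SNAI1 0.27, ZEB2 -0.13 in the interaction. With the replicate block and without the pair numbered 1 the sign turned for CDH1 -0.78, KRT18 -0.0057, ZEB2 0.15 in siNELFA against siControl. With the replicate block and without the pair numbered 2 the sign turned for ZEB2 -0.024 in siYAP against siControl. With the replicate block and without the pair numbered 3 the sign turned for VIM 0.020 in siYAP against siControl, and SNAI2 0.00086 in siNELFA against siYAP. With DESeq2 the sign turned for ZEB2 0.0020 in siNELFA+siYAP against siYAP. With no filter beyond 1 count the sign turned for ZEB2 0.019 in siNELFA+siYAP against siYAP. With all 12 libraries in one fit the sign turned for ZEB2 0.0021 in siNELFA+siYAP against siYAP. The log2 fold changes that turned sign when 1 library was left out ranged as follows. In siNELFA against siControl these were FN1 from -1.12 to 0.21, ZEB2 from -0.13 to 0.15, CDH1 from -4.37 to 4.79. In siYAP against siControl these were CDH1 from -10.04 to 3.20, FN1 from -0.47 to 0.94, ZEB2 from -0.071 to 0.23, VIM from -0.11 to 0.10, SNAI2 from -0.36 to 0.039, SNAI1 from -0.018 to 0.65. In siNELFA+siYAP against siControl these were ZEB2 from -0.061 to 0.22, SNAI2 from -0.22 to 0.032. In siNELFA+siYAP against siNELFA these were SNAI2 from -0.033 to 0.35, VIM from -0.041 to 0.22, CDH1 from -5.96 to 0.064, FN1 from -0.50 to 0.38, ZEB1 from -0.045 to 0.054, SNAI1 from -0.077 to 0.54. In siNELFA+siYAP against siYAP these were SNAI2 from -0.11 to 0.28, ZEB2 from -0.039 to 0.050, CDH2 from -0.67 to 0.091. In the interaction these were ZEB2 from -0.14 to 0.13, KRT18 from -0.053 to 0.10, SNAI1 from -0.53 to 0.18, VIM from -0.019 to 0.24, CDH1 from -8.38 to 4.80, FN1 from -1.17 to 0.22. In siNELFA against siYAP these were SNAI2 from -0.30 to 0.15, CDH1 from -3.68 to 10.94. The cause was not tested. Replicate 1 of the single-siRNA groups lay beyond the other 9 libraries in FN1, VIM, CDH1 and SNAI2, and the counts of CDH2, CDH1 and SNAI1 limit their precision. A fit of 4 libraries rests on the spread that edgeR shares across genes.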
